A study of Mus musculus with 7 samples.

Results

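Krt8, Krt18, Krt19, Krt20 and Krt7 encode the keratins that make up the intermediate filaments of simple epithelia. These 5 genes were chosen by name from the 52550 genes of the deposited count tables, except that Krt19 was picked for its higher level after dextran sulfate sodium (DSS), so its difference between the groups is given as a description with no test. RNA was sequenced from Paneth cells, the granule-filled secretory cells of small-intestinal crypts, in 7 libraries. All mice carried the Lgr5-EGFP-IRES-CreERT2 allele, which places a green fluorescent protein and an inducible Cre at the stem cell gene Lgr5, and were of the strain C57BL/6J. For the 4 DSS libraries, mice were given 3% DSS, a polymer toxic to gut epithelium, in their water over 7 days and killed 3 days after its withdrawal, with DSS 1 aged 12 weeks and DSS 2 to DSS 4 aged 10 weeks. The 3 control libraries came from mice left on water, with water 1 and water 2 aged 12 weeks and water 3 aged 10 weeks. Live single cells from crypts were sorted by the surface protein CD24 and side scatter, with cells carrying TER119, CD31 or CD45 gated out.

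Keratins of type I, here Krt18, Krt19 and Krt20, are acidic and those of type II, here Krt8 and Krt7, are basic, and a filament is built from both types in equal amounts. Krt8 and Krt18 are the first pair made by simple epithelia, and mice that lack Krt8 develop inflammation of the colon. Krt19 is a further type I keratin of crypt cells, Krt20 marks the differentiated cells of the villus and goblet cells, and Krt7 is best known from ducts and glands.

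Total counts ran from 23175708 to 32451653 a library. CPM is the unit of counts scaled to library size. By library totals alone, 3 counts equal 0.09245 CPM in the deepest library and 0.129 CPM in the shallowest. The other CPM values also carry TMM scaling factors, with which these 2 values differ. Of 12 Paneth cell markers, 11 were in the files, and they summed to between 228302 and 240201 CPM in water and between 111389 and 194348 CPM in DSS, with the lysozyme gene Lyz1 the most abundant. Summed markers of mesenchymal and mesothelial cells stayed at or under 3.16 CPM in every library and those of basal and squamous epithelium at or under 4.58 CPM. Endothelial markers stayed at or under 7.28 CPM, while crypt base stem cell markers summed to between 4384 and 5367 CPM, and markers of enterocytes, goblet, tuft and enteroendocrine cells were also detected. In such bulk samples, fewer cells of a type and less RNA per cell cannot be told apart.

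Coordinates are those of the count tables (mm10, GENCODE release 15), in which reads are summed over the exons of a gene. Krt8 (ENSMUSG00000049382.9) is a minus-strand gene of chromosome 15 between 101996711 and 102004342, and Krt18 (ENSMUSG00000023043.6) follows 23874 bases on, from 102028216 to 102032026 on the plus strand. Krt7 (ENSMUSG00000023039.16) lies on the same chromosome from 101411043 to 101430313 on the plus strand. Krt19 (ENSMUSG00000020911.14) lies on chromosome 11 from 100140810 to 100148665 and Krt20 (ENSMUSG00000035775.2) from 99428403 to 99438150, both on the minus strand. Krt18 is thus the type I member that sits beside a type II gene rather than with the other type I genes of chromosome 11.

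The promoters of Krt8 and Krt18 are shown because these neighbours, whose products pair, are the genes whose ratio is described further on. Both are from RefSeq on GRCm38.p6, reading 5′ to 3′ on the gene's strand from 250 bases before to 50 bases after the annotated start, with matches to the searched motifs in capitals. Krt8 is at chr15:102004293-102004592 on the minus strand and Krt18 at chr15:102027966-102028265 on the plus strand.
Krt8: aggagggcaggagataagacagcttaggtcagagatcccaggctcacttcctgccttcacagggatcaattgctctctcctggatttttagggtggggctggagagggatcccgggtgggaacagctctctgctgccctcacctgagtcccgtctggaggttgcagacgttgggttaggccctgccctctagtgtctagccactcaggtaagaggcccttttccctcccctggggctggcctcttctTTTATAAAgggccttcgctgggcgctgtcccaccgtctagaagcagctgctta
Krt18: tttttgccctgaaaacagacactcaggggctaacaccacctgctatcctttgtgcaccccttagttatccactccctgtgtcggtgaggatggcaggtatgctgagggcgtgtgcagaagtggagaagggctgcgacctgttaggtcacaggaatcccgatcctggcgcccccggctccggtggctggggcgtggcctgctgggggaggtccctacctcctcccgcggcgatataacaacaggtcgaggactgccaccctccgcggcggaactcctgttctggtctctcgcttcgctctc
Both strands were searched for the TATA box letters TATAAA, the GC box letters GGGCGG and the AP-1 letters TGANTCA. The Krt8 window held 2 matches to TATAAA, 1 on each strand and overlapping each other, the first of which begins 3 bases before the annotated start, and the Krt18 window held no match to any of the motifs searched. TATAAA was present in 13.6% of the 32851 promoter windows of the same length, GGGCGG in 35.7% and TGANTCA in 7.81%. The Krt20 window held 1 match to TATAAA, beginning 29 bases before the start. The Krt7 window, at chr15:101412153-101412452 on the plus strand, held 4 matches to GGGCGG. That whole window lies after the start of Krt7 in the count tables, inside the gene as given above. These matches describe the letters of the windows only. No promoter of Krt19 was used.

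Krt18 and Krt8 were the most abundant of the 5 keratins per length, followed by Krt19, with Krt7 and Krt20 far lower. In CPM per kilobase of exon, the water levels were 343 ± 27.3 for Krt18 and 303 ± 15.01 for Krt8 (SD, n = 3). Krt19 stood at 149 ± 6.17, Krt7 at 24.7 ± 3.28 and Krt20 at 18.6 ± 10.5 on the same scale. In DSS, Krt8 was at 406 ± 65.8 CPM per kilobase, Krt18 at 380 ± 59.0, Krt19 at 209 ± 27.0, Krt7 at 25.2 ± 1.65 and Krt20 at 20.9 ± 7.63 (SD, n = 4). Krt19 lay below Krt18 and Krt8 and above Krt7 and Krt20 in every library, whereas the ranges of Krt7 and Krt20 overlapped in both groups. The level of Krt7 depends on the length used, because its annotated exons span 7055 bases and its longest coding transcript 4094 bases, with which its water level became 42.5 CPM per kilobase.

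**Figure D1:**
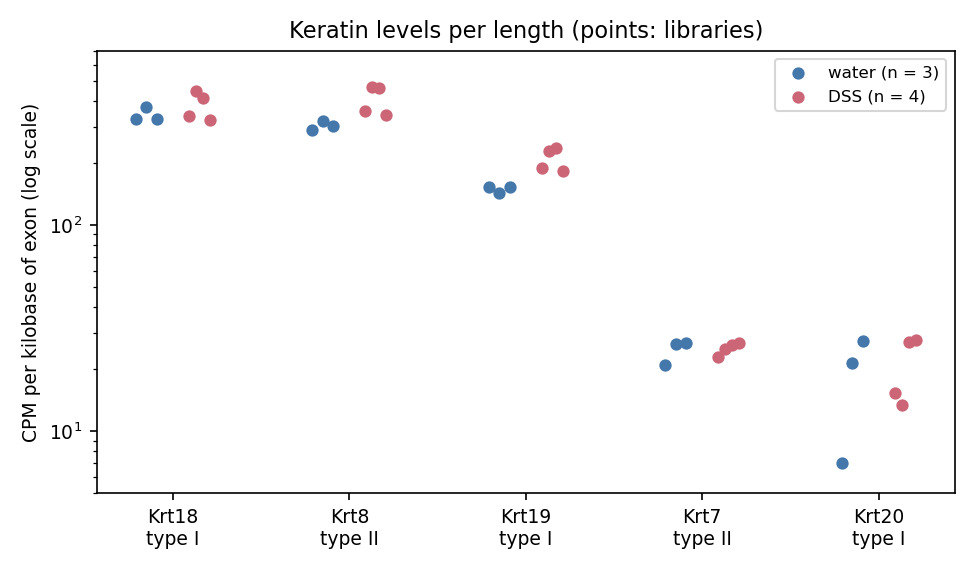
Levels of the 5 keratins in CPM per kilobase of exon on a log axis, with 1 point for each of the 3 water and 4 DSS libraries. Krt18, Krt8 and Krt19 lie above 142 in every library, and Krt7 and Krt20 at or below 27.8.

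Krt8, the type II keratin of the main pair, was at 523, 577 and 543 CPM in water 1 to 3 and at 646, 840, 831 and 616 CPM in DSS 1 to 4. Each DSS library exceeded each water library, as was the case for 7.40% of the 17449 genes tested, while 7.51% showed the opposite order, and DSS 2 and DSS 3 were the highest. The group levels were 547 ± 27.1 CPM in water (SD, n = 3) and 733 ± 119 CPM in DSS (SD, n = 4). The log2 change was 0.42 ± 0.13 (SE, edgeR quasi-likelihood fit) with an unadjusted p of 0.00924, where 8.36% of genes were higher at an unadjusted p under 0.05, and an adjusted p of 0.193 over all genes, so Krt8 did not pass the threshold of 0.05. That test called 0 genes, or 0.00% of those tested, although 2742 genes, or 15.7%, had an unadjusted p under 0.05. Limma-voom also called 0 genes, while DESeq2 called 646 genes, or 1.84% of the 35076 it gave a p, with 351 higher and 295 lower. Some of the 35076 had no DESeq2 adjusted p and could not be called. Krt8 was among those higher, with a DESeq2 adjusted p of 0.0193, and over all 18 alternatives its adjusted p ran from 0.0193 to 0.643. With libraries scaled by their totals only, the log2 change of Krt8 was 0.66 (edgeR adjusted p = 0.0352), the median of all genes moved to 0.23 and 12.1% of genes were called higher. The log2 change of Krt8 was smaller, at 0.16, among the libraries whose deposited names carry the number 6 (all 3 water libraries and DSS 4), and 0.20 without DSS 2 and DSS 3, an alternative added after seeing the data.

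Krt18, the type I partner of Krt8, was at 459, 524 and 456 CPM in water 1 to 3 and at 473, 623, 581 and 453 CPM in DSS 1 to 4. The groups overlapped, since DSS 2 and DSS 3 lay above the water libraries while DSS 1 and DSS 4 lay among or just below them. Mean levels of Krt18 were 480 ± 38.3 CPM without and 533 ± 82.6 CPM with DSS (SD, n = 3 and 4). The log2 change was 0.15 ± 0.13 (edgeR adjusted p = 0.614). Without DSS 2 and DSS 3 the log2 change of Krt18 turned to -0.05, and it was 0.07 without DSS 2 alone.

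Krt19, a type I keratin of crypt cells, was at 284, 264 and 283 CPM in water 1 to 3 and at 350, 426, 436 and 340 CPM in DSS 1 to 4. The DSS libraries all lay above the water libraries, the pattern for which this gene was picked, and DSS 2 and DSS 3 were again the highest. Mean levels of Krt19 were 277 ± 11.5 CPM without and 388 ± 50.1 CPM with DSS (SD, n = 3 and 4), and the log2 change was 0.49.

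**Figure D2:**
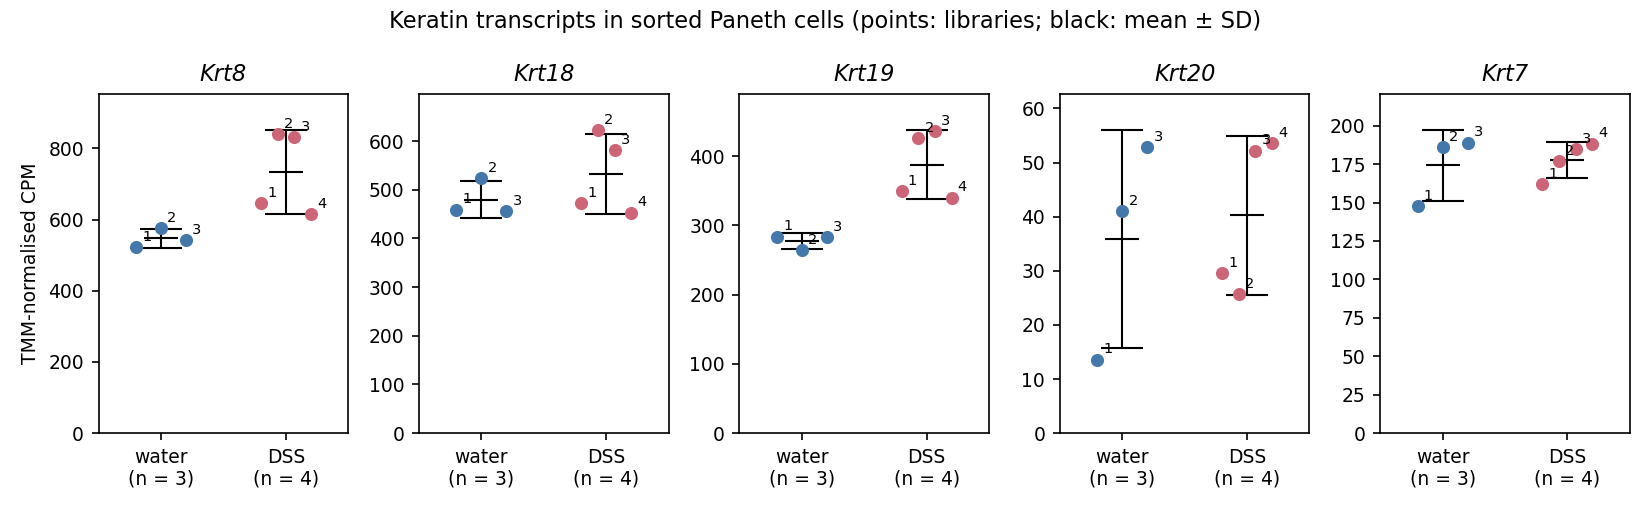
TMM-normalised CPM of each keratin in the 3 water and 4 DSS libraries, numbered by replicate, with the mean and SD in black and axes from 0. For Krt8 and Krt19 the DSS libraries all lie above the water libraries, and for Krt18, Krt20 and Krt7 the groups overlap.

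Krt20, the keratin of differentiated gut epithelium, varied most within groups. It was at 13.6, 41.1 and 52.9 CPM in water 1 to 3 and at 29.6, 25.7, 52.2 and 53.6 CPM in DSS 1 to 4. Water 1 was the lowest library and the groups overlapped, with 35.8 ± 20.2 CPM in water (SD, n = 3) and 40.3 ± 14.7 CPM in DSS (SD, n = 4). The log2 change of 0.17 ± 0.42 had an edgeR adjusted p of 0.891 and turned to -0.22 without water 1.

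Krt7, the type II keratin of ducts and glands, was at 147, 186 and 189 CPM in water 1 to 3 and at 162, 177, 185 and 188 CPM in DSS 1 to 4. The DSS libraries all lay within the range of the water libraries. The log2 change was 0.03 ± 0.10 (edgeR adjusted p = 0.914), and it turned to -0.08 without water 1. Short stretches of the longest coding transcript of Krt7, under 300 bases and at least 85% identical, were also found in transcripts of at least 440 other genes, so some of its reads may belong elsewhere.

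Within each library, Krt18 was lower relative to Krt8 after DSS. For each count of Krt8, water 1 to 3 held 0.879, 0.909 and 0.840 counts of Krt18, and DSS 1 to 4 held 0.732, 0.742, 0.699 and 0.736. All 4 DSS libraries lay below all 3 water libraries, and DSS 1 and DSS 4 lay as low as DSS 2. The mean log2 ratio was -0.19 ± 0.0567 without and -0.46 ± 0.0385 with DSS (SD, n = 3 and 4), a difference of -0.27 or a fold of 0.830. A two-sided exact permutation test over the 35 possible labellings gave p = 0.0286, the smallest p it can give. Adjusted by Benjamini-Hochberg over the 3 ratios tested, the p was 0.0857 and did not pass the threshold of 0.05. A ratio within a library does not depend on how libraries are scaled.

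The other ratios to Krt8 were less even. The log2 ratio of Krt7 to Krt8 was -1.66 ± 0.15 without and -2.03 ± 0.24 with DSS (SD, n = 3 and 4), and 3 of 4 DSS libraries lay below the water libraries (exact permutation p = 0.0857, adjusted p = 0.129). Without DSS 2 and DSS 3 the difference in this ratio went from -0.37 to -0.19. The log2 ratio of Krt20 to Krt8 was -4.15 ± 0.997 in water and -4.25 ± 0.64 in DSS (exact permutation p = 0.886, adjusted p = 0.886). Ratios that hold Krt19 are descriptions. For each count of Krt8, water 1 to 3 held 0.543, 0.458 and 0.522 counts of Krt19, and DSS 1 to 4 held 0.541, 0.507, 0.525 and 0.552, so these groups overlapped. Relative to Krt18, Krt19 was at 0.618, 0.503 and 0.621 counts in water and at 0.739, 0.683, 0.751 and 0.751 counts in DSS, all above the water libraries.

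**Figure D3:**
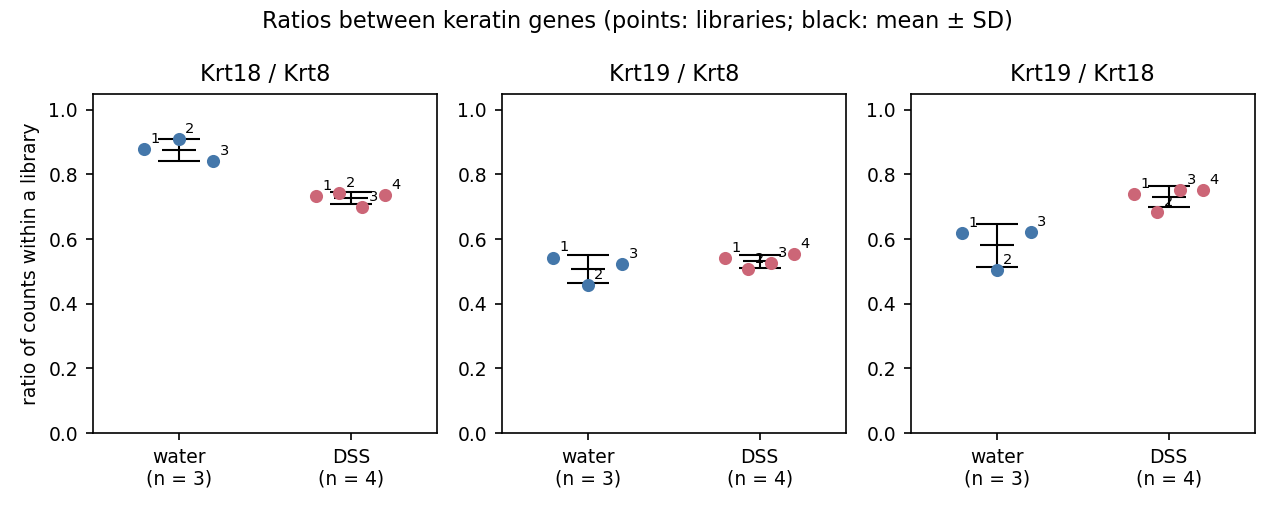
Ratios of counts within each library for Krt18 to Krt8, Krt19 to Krt8 and Krt19 to Krt18, numbered by replicate, with the mean and SD of the 3 water and 4 DSS libraries in black. The Krt18 to Krt8 ratio lies between 0.840 and 0.909 in water and between 0.699 and 0.742 in DSS.

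Per kilobase of exon, Krt18 was above Krt8 in all 3 water libraries, by 1.08 to 1.17 times, and below it in all 4 DSS libraries, at 0.901 to 0.957 times. With the lengths of the longest coding transcripts the DSS libraries were at 0.953 to 1.01 times, so which of the pair leads in DSS depends on the length used. Summed over the 5 keratins the level was 839 ± 42.6 CPM per kilobase in water (SD, n = 3) and 1042 ± 150 CPM per kilobase in DSS (SD, n = 4), a description since it includes Krt19. Krt8 made up 36.2% ± 0.0961 of that sum in water and 38.9% ± 0.817 in DSS, Krt18 40.8% ± 1.65 and 36.5% ± 0.962, and Krt19 17.9% ± 1.58 and 20.1% ± 0.431 (SD, n = 3 and 4). The sum of the type I genes over that of the type II genes was 1.56 ± 0.0134 in water and 1.42 ± 0.0270 in DSS, again with Krt19 included. These sums and shares rest on exon lengths and depend on the length used too. With the longest coding transcripts, Krt7 was at 42.5 and Krt19 at 176 CPM per kilobase in water.

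Krt8 has a processed pseudogene, Krt8-ps on chromosome 7, that matches the Krt8 transcript over 941 coding bases with 13 differences, or 98.6% identity by BLAST. The stretch of 80 bases with most differences is shown because it is where reads of the 2 genes can best be told apart. Both are from the GENCODE release 21 transcripts, from base 1084 to 1163 of Krt8 and from base 841 to 920 of Krt8-ps, with the 5 differing bases in capitals.
Krt8: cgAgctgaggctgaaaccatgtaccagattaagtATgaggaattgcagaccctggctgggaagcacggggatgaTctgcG
Krt8-ps: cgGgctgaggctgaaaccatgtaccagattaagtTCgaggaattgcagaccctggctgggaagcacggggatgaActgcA
Krt8-ps was counted at 130, 126 and 128 CPM in water 1 to 3 and at 146, 184, 190 and 143 CPM in DSS 1 to 4, following Krt8. The counts of Krt8-ps were 0.235 ± 0.0144 of those of Krt8 without and 0.227 ± 0.00549 with DSS (SD, n = 3 and 4). Reads of the 2 can be split, so the separate values of Krt8 are uncertain, and with both counted together, an alternative added after seeing the data, the difference in the log2 ratio of Krt18 to Krt8 was -0.26. Krt18 has the processed pseudogenes Gm5200 and Gm17847, 90.5% and 86.5% identical, which held at most 8 and 26 counts. No copy of at least 300 bases was found for Krt19, Krt20 or Krt7.

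Krt8 and Krt19 followed each other most closely over the 7 libraries. The profile of a gene is its log2 CPM after subtraction of its own mean, and likeness is the root mean square difference between 2 profiles, among the 9108 genes whose log2 CPM averaged 3 or more. Krt8 and Krt19 differed by 0.08, and 9 genes lay closer to Krt8 than Krt19 did and 12 closer to Krt19 than Krt8 did. Krt8 and Krt18 differed by 0.14, with 154 genes closer to Krt8 than Krt18 was and 870 closer to Krt18 than Krt8 was. Krt7 differed from the others by 0.19 to 0.57 and Krt20 by 0.57 to 0.70. These values are descriptions over libraries that include the difference for which Krt19 was picked.

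The genes most like Krt19 were Ctss, the protease cathepsin S, at 0.05, Midn at 0.05, Actg1, the cytoplasmic gamma-actin, at 0.06, Sfn, a 14-3-3 protein of epithelia, at 0.07, and Aprt, an enzyme of purine salvage, at 0.07, against a median of 0.29 over all genes compared. Among the genes compared, Krt8 was closest to Aldh2, the mitochondrial aldehyde dehydrogenase, Esrra, an orphan nuclear receptor, and Actg1, each at 0.07. Krt8-ps, whose counts followed Krt8, was not among the genes compared. Krt18 was closest to Tmem176b and Tmem176a at 0.04 and Ppp1r9b at 0.05, against a median of 0.21. Krt20 was closest to the prostaglandin transporter Slco2a1 at 0.18, the brush border enzyme Sis at 0.21, which is among the enterocyte markers, and the hormone gene Sct at 0.21, which is among the enteroendocrine markers, against a median of 0.70. Krt7 was closest to Ralgds, Ccser1 and Cox14, each at 0.05, against a median of 0.18.

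Markers of other cell types moved with some of these profiles. The 13 tuft cell markers summed to 626, 713 and 630 CPM in water 1 to 3 and to 633, 1164, 1183 and 589 CPM in DSS 1 to 4, so that they were highest in DSS 2 and DSS 3, as were Krt8, Krt18 and Krt19. RNA of DSS 2 and DSS 3 was isolated on the same day of the month, as was that of water 1 and water 2. The 12 white blood cell markers were also highest in DSS 2 and DSS 3, at 18.4 and 18.7 CPM. They summed to 9.35 to 14.99 CPM in water and to 11.9 and 9.23 CPM in DSS 1 and DSS 4. Most of each sum was Ptprc, which encodes CD45, while Cd3g, S100a8 and Ly6g had no count in any library. The 10 mesenchymal markers summed to 2.01, 1.73 and 1.43 CPM in water 1 to 3 and to 2.38, 2.92, 3.16 and 2.16 CPM in DSS 1 to 4. Each DSS sum exceeded each water sum, with DSS 2 and DSS 3 again the highest, but most of it was 1 gene, Pdgfrb. Pdgfrb, the only 1 of the 10 with enough counts to be tested, was at 1.92, 1.59 and 1.22 CPM in water 1 to 3. In DSS 1 to 4 it was at 1.94, 2.41, 2.85 and 2.16 CPM, an order that 7.40% of all tested genes showed. In DSS 1 and DSS 4 the tuft sums lay among or below those of water. Krt8 and Krt19 lay above every water library in these 2, the order for which Krt19 was picked, and Krt18 did not. The Krt18 to Krt8 ratio lay below every water library in both. Without DSS 2 and DSS 3 the log2 change of Krt8 was 0.20 (edgeR adjusted p = 0.643) and that of Krt19 0.32. The difference in the log2 ratio of Krt18 to Krt8 was then -0.25. The Paneth cell markers summed to 194348, 161206, 111389 and 119057 CPM in DSS 1 to 4, and the part of these cell types in the keratin values was not tested.

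The 14 enteroendocrine markers summed to 78.1, 1598 and 2851 CPM in water 1 to 3 and to 969, 590, 1366 and 1345 CPM in DSS 1 to 4. The lowest library was water 1 for these markers and for Krt20, and within DSS both were lowest in DSS 2. The 18 enterocyte markers, for which Krt20 is best known, summed to 1401, 1317 and 1514 CPM in water 1 to 3. In DSS 1 to 4 they were at 1389, 1273, 1518 and 1380 CPM, also lowest in DSS 2. Within water they were lowest in water 2, and Vil1 and Anpep were the most abundant of them. The 10 goblet cell markers summed to between 5476 and 6694 CPM in water and between 5238 and 9608 CPM in DSS. The part of these cells in the Krt20 values was not tested.

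**Figure D4:**
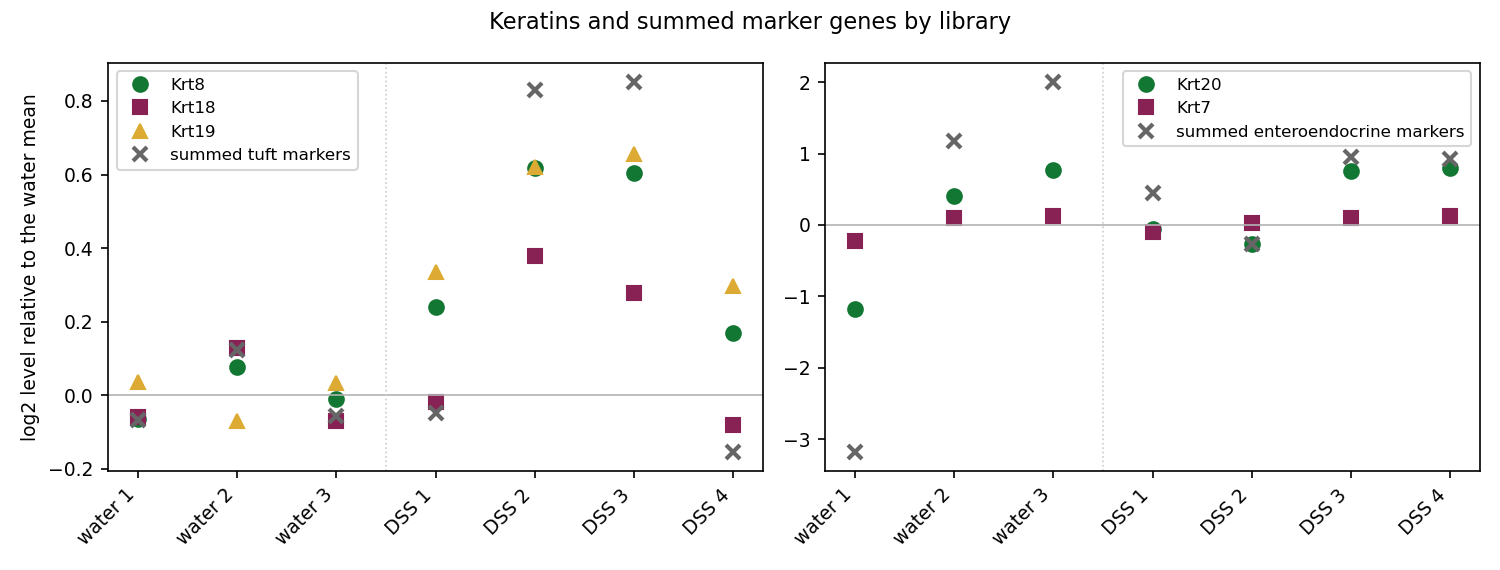
Log2 level of each keratin in each library relative to the water mean, beside summed tuft cell markers (left) and summed enteroendocrine markers (right). Krt8 and Krt19 are at 0.60 to 0.66 in DSS 2 and DSS 3, where tuft markers reach 0.83 and 0.85, and Krt20 and enteroendocrine markers are lowest in water 1, at -1.18 and -3.18.

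Age was unequal between the groups. Among 10-week mice, Krt8 was at 543 CPM in the 1 water library and at a mean of 762 CPM in the 3 DSS libraries, and among 12-week mice at a mean of 550 CPM in 2 water libraries and at 646 CPM in 1 DSS library. Krt19 was at 283 and 401 CPM at 10 weeks and at 274 and 350 CPM at 12 weeks. Krt18 was at 456 and 552 CPM at 10 weeks and at 492 and 473 CPM at 12 weeks, so its direction differed between the ages. The difference in the log2 ratio of Krt18 to Krt8, DSS minus water, was -0.21 at 10 weeks and -0.29 at 12 weeks. No day of RNA isolation was shared by both groups, so that day and treatment cannot be told apart.

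Of the genes next to the 5 keratins, some had almost no counts and others were well expressed. Krt78, before Krt8, held 0 to 4 counts a library, Krt9, after Krt19, held 0 counts in every library, and Krt12, before Krt20, held 0 to 1 count. Krt15, a keratin of crypt and hair follicle stem cells that lies 4882 bases from Krt19, held 13 to 29 counts. Krt23, after Krt20, had 27.96 ± 3.33 CPM without and 31.7 ± 5.75 CPM with DSS (SD, n = 3 and 4), and its log2 change was 0.18 ± 0.14 (edgeR adjusted p = 0.581). Eif4b, a translation initiation factor that lies after Krt18, was at a log2 change of 0.18 ± 0.08 (edgeR adjusted p = 0.332).

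Of the 49 other keratin genes, 7 had enough counts to be tested, and 6 had no count in any library. None of the 7 passed in edgeR in either direction, with 1 at an unadjusted p under 0.05, where 15.7% of all tested genes had one. DESeq2 called 0, but it gave no adjusted p to Krt87, Krt80 and Krt31 and so could not call them. The median log2 change of the 7 was -0.01, against -0.0015 over all genes tested. The smallest p belonged to Krt87, a hair keratin gene next to Krt7, with 2.86 ± 0.355 CPM without and 1.63 ± 0.671 CPM with DSS (SD, n = 3 and 4, edgeR adjusted p = 0.241). Krt80, on the other side of Krt7, had a log2 change of 0.84 ± 0.43 and Krt31, a hair keratin, one of -0.52 ± 0.32, both at or under 1.03 CPM in every library.

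Desmosomes tie keratin filaments to the borders between cells. Of 9 tested desmosome genes 0 were called higher and 0 lower by edgeR, and the median log2 change was 0.07. Among them 1 had an unadjusted edgeR p under 0.05, against 15.7% of all genes, and DESeq2 called 0, against 1.84% of all genes. Jup, the linker plakoglobin, was at 121, 124 and 119 CPM in water 1 to 3 and at 139, 151, 130 and 128 CPM in DSS 1 to 4. Its DSS libraries all lay above the water libraries, as was the case for 7.40% of all genes tested. The log2 change of Jup was 0.17 ± 0.07 (edgeR adjusted p = 0.287). Dsg2, the desmosomal cadherin of simple epithelia, was at 0.12 ± 0.08 and Perp, a desmosomal membrane protein, at -0.15 ± 0.08.

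Hemidesmosomes and plakins tie keratins to the basement membrane and to the rest of the cytoskeleton. Of 8 tested genes 0 were called in either direction by edgeR and by DESeq2, and the median was 0.13, or 0.02 without water 1. An unadjusted p under 0.05 was found for 2 of the 8, both above 0, against 8.36% of all genes in that direction. Plec, the linker plectin, had 148 ± 18.0 CPM without and 173 ± 11.1 CPM with DSS (SD, n = 3 and 4), and its log2 change was 0.22 ± 0.09 (edgeR adjusted p = 0.287). Itga6, the laminin receptor subunit of hemidesmosomes, was at 0.18 ± 0.07 and Macf1, a plakin that binds actin and microtubules, at -0.20 ± 0.10, with edgeR adjusted p of 0.289 and 0.370.

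Among 11 other intermediate filament and lamin genes, 0 were called by edgeR or DESeq2, with a median of 0.08. Against 15.7% of all genes, 1 of the 11 had an unadjusted edgeR p under 0.05. That gene, Lmnb2, which encodes a lamin of the nuclear envelope, had 52.0 ± 4.78 CPM without and 59.7 ± 1.56 CPM with DSS (SD, n = 3 and 4), and its log2 change was 0.20 ± 0.07 (edgeR adjusted p = 0.234). Synm and Gfap, which encode filament proteins of muscle and glia, were at or under 0.971 CPM in every library, at 0.82 ± 0.41 and -0.52 ± 0.38. DESeq2 gave both genes no adjusted p and so could not call them.

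Of 24 tested genes for keratin-binding proteins, chaperones, kinases and caspases, 0 were called by edgeR and 1 was called higher by DESeq2, which called 1.84% of all genes, with a median of 0.01. An unadjusted p under 0.05 was found for 4 of the 24, a share near the 15.7% of all genes. The gene called by DESeq2, Sfn, was at 13.6, 11.6 and 11.8 CPM in water 1 to 3 and at 14.5, 18.1, 18.6 and 14.9 CPM in DSS 1 to 4. All 4 DSS libraries lay above the water libraries, an order that 7.40% of all tested genes showed, with DSS 2 and DSS 3 the highest. The log2 change of Sfn was 0.42 ± 0.12 (edgeR adjusted p = 0.177). Pof1b, an actin-binding protein of epithelial junctions, was at -0.29 ± 0.10 and Sqstm1, the autophagy receptor p62, at -0.29 ± 0.12, with edgeR adjusted p of 0.227 and 0.276. Sqstm1 was at -0.17 without water 2.

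Of 19 tested epithelial transcription factors 0 were called by edgeR or DESeq2, with a median of 0.16, or 0.07 without DSS 2 and DSS 3. An unadjusted p under 0.05 was found for 5 of the 19, against 15.7% of all genes, and 4 of these were above 0, against 8.36% of all genes. Cdx2, a master regulator of intestinal identity, was at 86.2, 90.9 and 84.6 CPM in water 1 to 3 and at 95.5, 125, 101 and 104 CPM in DSS 1 to 4. The DSS libraries of Cdx2 all lay above the water libraries, as was the case for 7.40% of all genes tested. The log2 change of Cdx2 was 0.29 ± 0.09 (edgeR adjusted p = 0.207). Its relative Cdx1 was at 0.33 ± 0.12 and the AP-1 subunit Fos at 0.90 ± 0.30, with edgeR adjusted p of 0.246 and 0.223, and Fos ranged from 40.6 to 109 CPM among the DSS libraries. The log2 change of Fos was 0.54 without DSS 2, its highest library.

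**Figure D5:**
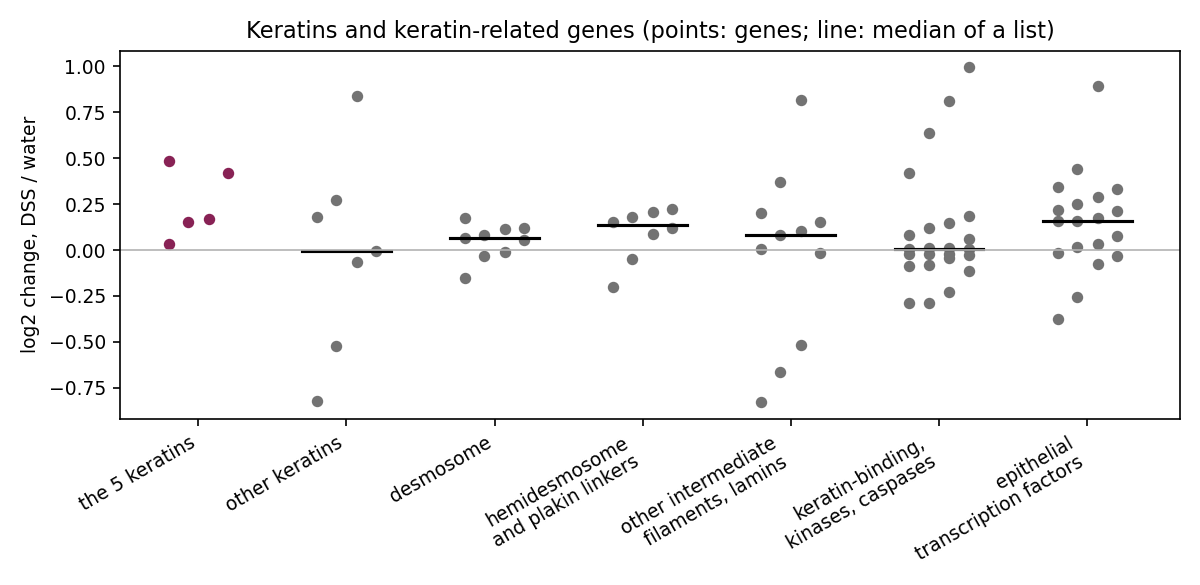
Log2 change of DSS relative to water for the 5 keratins and for the tested genes of each keratin-related list, with the median of a list as a line. The medians run from -0.01 for the other keratins to 0.16 for the epithelial transcription factors.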

How the data were processed

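Polyadenylated RNA of sorted Paneth cells was sequenced by the authors, who deposited raw counts per gene. Per the file headers, reads were counted with featureCounts 1.5.3 over exons of GENCODE release 15, from primary alignments overlapping by a fraction of 0.8 or more, without use of strand. Tools named in the submitters' processing notes are DESeq2, STAR 2.5.3a and featureCounts 1.5.2, with the build mm10. Symbols from GENCODE release 21 matched 52403 of 52550 identifiers.

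The deposited counts were analysed with edgeR 4.0.16 (R 4.3.3): filterByExpr left 17449 genes, TMM factors (0.899 to 1.14) were applied, and DSS was compared to water by the quasi-likelihood test, adjusted by Benjamini-Hochberg over all genes at a threshold of 0.05. The SE of a log2 change is its size over the square root of the F statistic of that test. DESeq2 1.42.0 and limma 3.58.1 were alternatives. Ratios used counts plus 0.5 and an exact permutation test. The edgeR and DESeq2 steps were tested on simulated data. Copies were sought with blastn 2.17.0. Named genes were the keratins, their nearest protein-coding neighbours, the most similar profiles, up to 3 genes of smallest p in each list and, of marker lists, the most abundant. Members, lists and tests were chosen with earlier results of these data known. Replicates were numbered in accession order and pair nothing. Whether libraries come from separate animals is not stated in the labels, and p-values cover only the spread among these samples, which may be technical. Counting intervals and limits cover counting error only.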

Additional observations from a re-analysis of the deposited data

Results flagged for a closer look

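Within the DSS group, 45 series of values were checked for a library far from the other 3, and 2 were found, where chance alone would give about 5% of series. The summed level of the epithelial transcription factors was 2386, 2701, 2413 and 2392 CPM in DSS 1 to 4, and the gap of DSS 2 to its nearest neighbour was 0.915 of the whole range, above Dixon's 95% limit for 4 samples. Pof1b was at log2 CPM values of 5.42, 5.27, 5.28 and 5.29 in DSS 1 to 4, and the gap of DSS 1 was 0.865 of the range. No keratin had such a library.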

How the results depend on the processing

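Over 18 alternatives the log2 change of Krt8 stayed above 0, from 0.16 among the number 6 libraries to 0.66, and passed the threshold with DESeq2 (0.42, adjusted p = 0.0193) and with library totals only (0.66, adjusted p = 0.0352). That of Krt19 ran from 0.29 among libraries whose deposited names carry the number 6, which hold DSS 4 as the only DSS library, to 0.72 with library totals only. Krt18 turned to -0.091 among the number 6 libraries and to -0.052 without DSS 2 and DSS 3. Krt20 turned to -0.10 with age as a covariate, to -0.27 among 10-week mice, to -0.22 without water 1 and to -0.0012 without DSS 4. Krt7 turned to -0.0431 with age as a covariate, to -0.0427 among 10-week mice and to -0.076 without water 1. Leaving out 1 library at a time gave 0.35 to 0.50 for Krt8, 0.07 to 0.22 for Krt18, 0.42 to 0.54 for Krt19, -0.22 to 0.57 for Krt20 and -0.076 to 0.096 for Krt7. The difference in the Krt18 to Krt8 log2 ratio ran from -0.21 to -0.30 over its 11 alternatives, and its smallest possible p rises as libraries are left out. That of Krt7 to Krt8 ran from -0.30 to -0.48 with 1 library left out and was -0.52 among 10-week mice and -0.19 without DSS 2 and DSS 3. That of Krt20 to Krt8 turned to 0.06 without water 2, 0.29 without water 3, 0.16 without DSS 2 and 0.16 without DSS 2 and DSS 3, and ran from -0.66 to 0.29 with 1 library left out. Krt31 turned to 0.12 among 10-week mice, Perp to 0.079 and Macf1 to 0.029 with library totals only, Dsg2 to -0.042 and Krt23 to -0.12 among the number 6 libraries, and Krt23 to -0.010 without DSS 2 and DSS 3. Against 0 genes called by edgeR, library totals only called 2135, DESeq2 646, no low-count filter 441, the number 6 libraries 9, and single left-out libraries 0 to 303, with 303 without DSS 1 and 9 without DSS 4. Of 78 tested genes of the keratin-related lists, library totals only called 17, or 21.8%, against 12.2% of all genes. DESeq2 and no low-count filter called 1 of 130 each, or 0.769%, against 1.84% and 1.26% of all genes. The 130 genes of DESeq2 include some without an adjusted p, such as Krt87, that could not be called. Leaving out 1 library gave 0.55 to 1.08 for Krt80, -0.77 to -0.18 for Krt31, 0.51 to 1.34 for Synm, -0.67 to -0.25 for Gfap, 0.06 to 0.27 for Krt23 and -0.20 to -0.09 for Perp, with Krt31 lowest in size without water 1, Synm without water 2, Perp without DSS 3, and Krt80, Gfap and Krt23 without DSS 2. The cause of these changes was not tested. No paired analysis was possible because the labels give the groups no shared replicate numbers. The group sizes of 3 and 4 limit the exact test to p = 0.0286 or above. By library totals alone, before TMM scaling, 3 counts correspond to at most 0.129 CPM.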
